A study of Homo sapiens with 25 samples.

Results

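The 10 genes described here are the 5 DNA-binding subunits of the transcription factor NF-kB (NFKB1, NFKB2, REL, RELA and RELB) and 5 genes that NF-kB is known to switch on and whose products act back on its signalling (NFKBIA, NFKBIE, TNFAIP3, BIRC3 and TRAF1). They were taken by gene symbol from a table of 31919 genes, and all 10 passed the filter on low values. The table comes from RNA sequencing of DND-41, an established human line of T-cell acute lymphoblastic leukaemia that was kept in medium with the essential amino acid histidine at 100% or less. There were 25 libraries in 9 groups. Day 6 has 3 libraries without histidine, 3 at 12.5%, 2 at 25%, 3 at 50% and 3 at 100%, and day 9 has 3 at 12.5%, 3 at 25%, 2 at 50% and 3 at 100%. Cells of all groups were the same line, no other treatment is named, and the 100% medium of the same day was the control for each lower level.

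NF-kB factors are dimers of Rel-family proteins. In resting cells inhibitor proteins of the IkB family hold them in the cytoplasm, and signals from receptors of immune cells destroy the inhibitor and free the dimer to enter the nucleus. The canonical arm works mainly through RELA, REL and the product of NFKB1, and the noncanonical arm through RELB and the product of NFKB2. Many of the genes that are switched on encode inhibitors of the same pathway. In T cells and T-cell leukaemias the pathway is known for its part in survival and in the response to antigen and cytokines.

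The total of normalized counts per library was 13.6 M to 16.1 M, 14425 to 16263 genes had at least 10 normalized counts, and log2 values of libraries of a group correlated at 0.964 to 0.972. Original read totals were not recovered. Of the T-lineage markers, CD3D, CD3E, CD3G, CD7 and LCK each had at least 3176 normalized counts in every library, while CD2 had 7.31 to 37.6 and PTCRA 0 to 8.14. Of the B-lineage markers, CD79A had 9400 to 22251, EBF1 168 to 418 and CD79B 54.5 to 164 in every library, while BLNK and PAX5 had medians of 4.31 and 0. Myeloid and fibroblast markers had medians of at most 2.95. In 6 libraries the sum of the keratins KRT8, KRT18 and KRT19, markers of epithelial cells, was 119 to 1406, against 0 to 60.3 in the other 19. These keratin-high libraries were replicates 1 and 3 at 25% on day 9. On day 6 they were replicates 1 and 2 at 50% and replicates 1 and 2 at 100%. Results against 100% or 50% on day 6 therefore rest on them, and so do results at 25% on day 9. For the no-histidine replicate 1 the title gives day 6 but the time label gives day 9, and it was kept at day 6. Days are given as on the samples, while the series text names days 3 and 6 where the samples name days 6 and 9. Whether replicates were separate cultures is not said in the labels, and p-values then reflect the spread of these libraries only, which may be technical. In bulk RNA a change in every cell and a change in a share of the cells cannot be told apart.

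The promoters of NFKB1, NFKBIA, TNFAIP3 and BIRC3 are shown because these genes moved in different ways across histidine levels while each promoter window holds the same kind of NF-kB motif. The windows run from 250 bases before to 50 after the gene's start in RefSeq on GRCh38.p14, and are written 5′ to 3′ on the gene's strand, in lower case with matches to the kB consensus in capitals. They are chr4:102501109-102501408 on the plus strand, chr14:35404700-35404999 on the minus strand, chr6:137867009-137867308 on the plus strand and chr11:102317234-102317533 on the plus strand.
NFKB1: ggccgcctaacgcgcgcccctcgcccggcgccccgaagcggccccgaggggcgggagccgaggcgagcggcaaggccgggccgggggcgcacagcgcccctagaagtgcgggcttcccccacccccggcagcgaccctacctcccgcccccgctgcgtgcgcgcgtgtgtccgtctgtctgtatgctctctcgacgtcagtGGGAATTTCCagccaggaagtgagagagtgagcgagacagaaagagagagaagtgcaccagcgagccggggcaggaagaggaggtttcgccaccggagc
NFKBIA: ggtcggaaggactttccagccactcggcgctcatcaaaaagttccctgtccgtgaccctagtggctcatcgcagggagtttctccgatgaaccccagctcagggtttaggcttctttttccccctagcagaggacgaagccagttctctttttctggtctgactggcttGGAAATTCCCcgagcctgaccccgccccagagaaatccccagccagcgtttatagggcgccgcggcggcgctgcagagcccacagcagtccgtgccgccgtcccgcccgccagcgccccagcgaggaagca
TNFAIP3: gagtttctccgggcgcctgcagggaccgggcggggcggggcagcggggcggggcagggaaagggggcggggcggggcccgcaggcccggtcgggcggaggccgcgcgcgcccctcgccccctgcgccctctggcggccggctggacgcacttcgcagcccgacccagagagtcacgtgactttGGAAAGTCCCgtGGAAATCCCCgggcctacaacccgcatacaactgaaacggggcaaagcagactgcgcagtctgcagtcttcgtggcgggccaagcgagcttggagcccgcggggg
BIRC3: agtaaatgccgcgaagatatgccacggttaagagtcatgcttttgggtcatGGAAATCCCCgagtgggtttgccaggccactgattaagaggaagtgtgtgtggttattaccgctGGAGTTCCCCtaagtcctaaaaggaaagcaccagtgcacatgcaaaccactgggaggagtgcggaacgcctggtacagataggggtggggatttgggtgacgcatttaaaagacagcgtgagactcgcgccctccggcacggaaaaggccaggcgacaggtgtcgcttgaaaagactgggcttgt
Counted from the start, the matches lie at -49 to -40 in NFKB1, at -81 to -72 in NFKBIA, at -67 to -58 and -55 to -46 in TNFAIP3, and at -199 to -190 and -135 to -126 in BIRC3. The consensus, GGGRNWYYCC (R is A or G, N any base, W is A or T, Y is C or T), was searched on both strands. A match was found in 5 of the 8 members with a promoter entry (the 4 shown and REL), against 5.72% of 27305 promoters of the same length. The looser pattern GGGNNNNNCC, which includes every match to the consensus, was found in all 8 and in 58.0% of all promoters. RELB and NFKBIE had no entry. The members were chosen as subunits and known targets of NF-kB, so their share of matches is no independent finding. A match describes the letters only.

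The largest called change against 100% among the 10 genes was on each day the rise of RELB at 25% histidine, not a change at the lowest levels. At 25% RELA, RELB, NFKBIA, TNFAIP3 and BIRC3 rose against 100% on both days and none of the 10 fell. At 12.5% on both days, and with no histidine on day 6, RELA, NFKBIA and TNFAIP3 rose while NFKB1 and NFKB2 fell, and RELB and BIRC3 did not pass the test. At 50% none of the 10 passed on either day. Some B-lineage markers also differed between levels. The sum of CD79A, CD79B, EBF1, BLNK and PAX5 on day 6 was 9696 to 13265 with no histidine, 11106 to 16942 at 12.5%, 19322 to 21271 at 25%, 12309 to 15335 at 50% and 15265 to 16925 at 100%. On day 9 the sum was 9724 to 11506 at 12.5%, 18996 to 22782 at 25%, 17323 to 19795 at 50% and 14629 to 18141 at 100%. Most of this sum is CD79A, with a median of 14950 over all libraries, against 298 for EBF1 and 110 for CD79B. The sum therefore mainly follows that 1 gene. Of these 5 markers, 3 fell with no histidine and at 12.5% on day 9 (CD79A, CD79B and EBF1). None of the 5 passed at 12.5% on day 6 or at 25% on either day against 100%. Their part in the members' changes was not tested. Changes are on the log2(normalized count + 1) scale, which understates changes of low genes, and were tested with limma's moderated test, two-sided and Benjamini-Hochberg adjusted over all 18799 genes tested, with a threshold of 0.05.

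In counts, 4 members rose and 2 fell with no histidine against 100% on day 6, where 13.3% of all genes tested rose and 16.5% fell. At 12.5% on day 6 it was 4 up and 2 down, against 11.7% and 15.3% of all genes. In the day 6 comparison at 25%, 5 members went up and 0 down, where 6.79% of all genes rose and 6.92% fell. For day 9 the members' counts were 3 up and 2 down at 12.5%, where 9.35% of all genes rose and 11.5% fell, and 5 up and 0 down at 25%, where 9.4% rose and 8.76% fell. The 5 risers at 25% were the same on both days, and 974 genes, 5.18% of all tested, rose at 25% on both days. RELA, NFKBIA and TNFAIP3 were among 1056 genes, 5.62% of those tested, that rose at 12.5% on both days. At 50%, limma called 0 members on either day, with 0 members at an unadjusted p under 0.05 on either day, and it called 0% of all genes on day 6 and 0.00532% on day 9. The median log2 change over the 10 members was 0.43 at 25% on day 6 and 0.52 at 25% on day 9, against 0.001 and 0.003 over all genes. The members' median was 0.07 with no histidine, 0.21 at 12.5% on day 6 and -0.02 at 12.5% on day 9, with members on both sides of 0. The 10 members were chosen with earlier results of these data known, so these counts and medians only describe them.

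**Figure D1:**
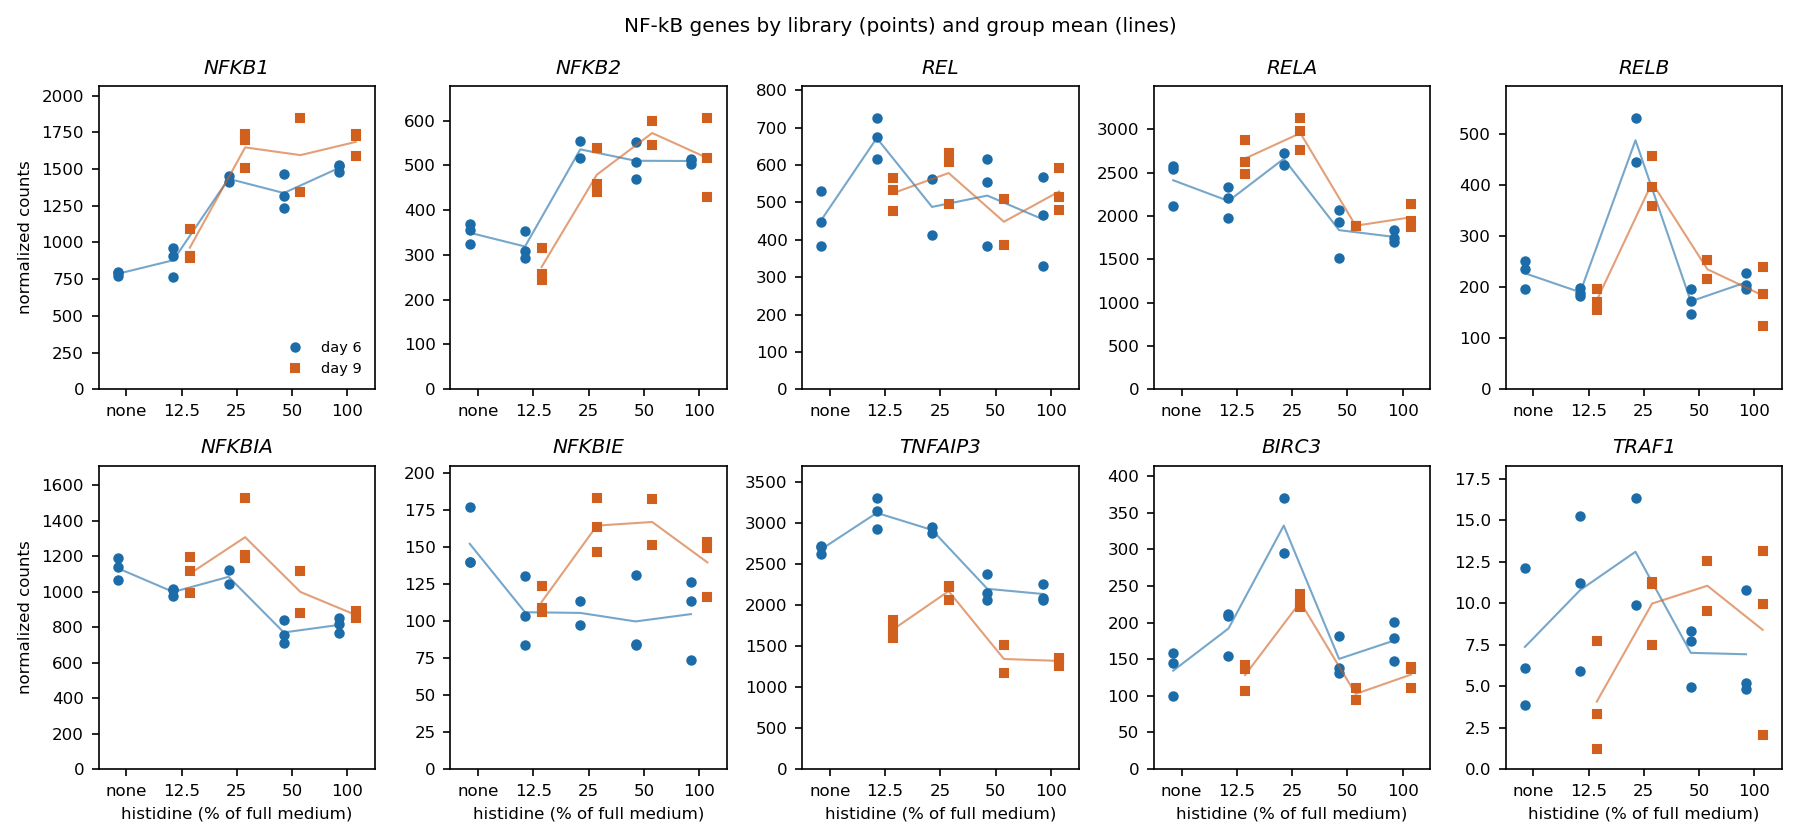
Normalized counts of the 10 genes (vertical axes, linear) in each of the 25 libraries (points) by histidine level (horizontal axes, low to high) on day 6 and day 9, and lines that join the group means. RELB and BIRC3 stand highest at 25% on both days, NFKB1 and NFKB2 stand lowest at 12.5% and with no histidine, and TRAF1 stays at or under 16.3 throughout.

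Among the subunits, RELB (chromosome 19, 45001430 to 45038198), the partner of the NFKB2 product in the noncanonical arm, moved the most. For RELB, normalized counts on day 6 were 196, 235 and 250.5 without histidine, 189, 183 and 198 at 12.5%, 531 and 445 at 25%, 172, 148 and 196 at 50% and 228, 196 and 205 at 100%. Its day 9 values were 197, 156 and 171 at 12.5%, 457, 397 and 359.7 at 25%, 217 and 254 at 50% and 239.9, 125 and 187 at 100%. All 5 libraries at 25% were above all 20 others. The other levels of each day overlapped, except that on day 9 every library at 12.5% was below every library at 50%. At 25% RELB rose against 100% on day 6 (log2 change 1.21, SE 0.20, adjusted p = 0.000176) and on day 9 (log2 change 1.18, SE 0.18, adjusted p = 4.28e-05). With no histidine its change against 100% was 0.11 (adjusted p = 0.694) in limma's test, and at 12.5% it was -0.14 (adjusted p = 0.618) on day 6 and -0.03 (adjusted p = 0.933) on day 9. RELB was also lower at 12.5% than at 25% on both days (log2 change -1.35, adjusted p = 8.38e-05 on day 6 and -1.21, adjusted p = 9.45e-05 on day 9), and higher at 25% than at 50% (log2 change 1.50, adjusted p = 1.81e-05 and 0.78, adjusted p = 0.00898). No setting tried ended the RELB calls at 25% against 100%, while the day 9 call against 50% was lost without the keratin-high libraries (log2 change 0.76, adjusted p = 0.152) and without replicate 1 at 50% (log2 change 0.66, adjusted p = 0.122). Without the keratin-high libraries the changes at 25% were 1.24 (adjusted p = 0.0193) on day 6 and 1.16 (adjusted p = 0.0150) on day 9, and in the single keratin-low library at 25% on day 9 RELB had 397 normalized counts.

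BIRC3 (chromosome 11, 102317450 to 102339403), which encodes an inhibitor of apoptosis and ubiquitin ligase in TNF receptor signalling, also stood highest at 25%. For BIRC3, normalized counts on day 6 were 145, 159 and 99.7 without histidine, 209, 154 and 212 at 12.5%, 295 and 369.7 at 25%, 138, 132 and 181 at 50% and 178, 148 and 200.3 at 100%. The day 9 libraries had 107, 137 and 142 at 12.5%, 221, 225 and 239 at 25%, 110.2 and 94.9 at 50% and 137, 111 and 139 at 100%. On each day every library at 25% was above every library at the other levels. BIRC3 rose at 25% against 100% on day 6 (log2 change 0.92, SE 0.21, adjusted p = 0.00383) and on day 9 (log2 change 0.82, SE 0.19, adjusted p = 0.00273). It was lower at 12.5% than at 25% on day 6 (log2 change -0.79, adjusted p = 0.0106) and day 9 (log2 change -0.83, adjusted p = 0.00710), and higher at 25% than at 50% (log2 change 1.14, adjusted p = 0.000558 and 1.15, adjusted p = 0.000496). With no histidine its change of -0.40 (adjusted p = 0.114) missed the threshold. The calls of BIRC3 at 25% against 100% were lost without the keratin-high libraries, with changes of 0.72 (adjusted p = 0.199) on day 6 and 0.80 (adjusted p = 0.101) on day 9, and without replicate 3 at 25% on day 6 the change was 0.76 (adjusted p = 0.0944). Without the keratin-high libraries the calls of BIRC3 between 25% and 50% on day 6 (log2 change 0.86, adjusted p = 0.0822) and between 12.5% and 25% on day 9 (log2 change -0.81, adjusted p = 0.216) were lost as well.

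RELA (chromosome 11, 65653596 to 65663094), the main transactivating subunit of the canonical arm, was higher at every level of 25% and below. For RELA, normalized counts on day 6 were 2120, 2578 and 2538 without histidine, 1974, 2209 and 2335 at 12.5%, 2727 and 2593 at 25%, 1933, 2063 and 1513 at 50% and 1696, 1834 and 1744 at 100%. On day 9 it had 2880, 2486 and 2622 at 12.5%, 3125, 2984 and 2759 at 25%, 1885 and 1890 at 50% and 2136, 1943 and 1875 at 100%. The libraries at 25% and below were all above those at 100% of the same day, and those at 50% overlapped with 100%. RELA rose with no histidine (log2 change 0.45, SE 0.10, adjusted p = 0.00154), at 12.5% on day 6 (log2 change 0.30, SE 0.10, adjusted p = 0.0313) and at 25% on day 6 (log2 change 0.60, SE 0.11, adjusted p = 0.000922). On day 9 it rose at 12.5% (log2 change 0.42, SE 0.10, adjusted p = 0.00435) and at 25% (log2 change 0.57, SE 0.10, adjusted p = 0.000278). RELA was also higher at 25% than at 50%, by 0.55 on day 6 and 0.65 on day 9 (adjusted p = 0.00198 and 0.000399). Between 12.5% and 25% it did not pass on either day (log2 change -0.29, adjusted p = 0.0788 on day 6 and -0.15, adjusted p = 0.429 on day 9). The RELA call at 12.5% on day 6 was lost without the filter, without the mean trend, without the keratin-high libraries (log2 change 0.31, adjusted p = 0.141), with 5.8S rRNA in the fit (log2 change 0.21, adjusted p = 0.308), and without replicate 1 or 3 at 100% or replicate 2 or 3 at 12.5%.

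NFKBIA (chromosome 14, 35401511 to 35404749) encodes the IkB protein that is resynthesised fastest after NF-kB is freed and that carries dimers back out of the nucleus. For NFKBIA, normalized counts on day 6 were 1065, 1187 and 1141 without histidine, 972, 1008 and 1013 at 12.5%, 1124 and 1042 at 25%, 757, 843 and 709.8 at 50% and 852, 766 and 819 at 100%. Its day 9 values were 1194, 995 and 1114 at 12.5%, 1525, 1206 and 1188 at 25%, 1117 and 879 at 50% and 891, 862 and 852 at 100%. All libraries at 25% and below were above those at 100% of the same day. NFKBIA rose with no histidine (log2 change 0.48, SE 0.10, adjusted p = 0.000993), at 25% on day 6 (log2 change 0.41, SE 0.12, adjusted p = 0.0175) and at 25% on day 9 (log2 change 0.58, SE 0.10, adjusted p = 0.000278). Its rises at 12.5% were smaller, with log2 changes of 0.30 (adjusted p = 0.0356) on day 6 and 0.34 (adjusted p = 0.0215) on day 9. NFKBIA missed the threshold without the keratin-high libraries at 12.5% on day 6 (log2 change 0.29, adjusted p = 0.198), at 25% on day 6 (log2 change 0.40, adjusted p = 0.140) and at 25% on day 9 (log2 change 0.47, adjusted p = 0.0507). Leaving out any library at 12.5%, or replicate 2 or 3 at 100%, also ended the day 6 call at 12.5%, either library at 25% or replicate 2 at 100% that at 25% on day 6, and replicate 1 or 3 at 12.5% or 2 or 3 at 100% that at 12.5% on day 9. With 5.8S rRNA in the fit both calls of NFKBIA at 12.5% were lost, with changes of 0.12 (adjusted p = 0.564) on day 6 and 0.27 (adjusted p = 0.0706) on day 9. Without the filter or the mean trend the day 6 call was lost.

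TNFAIP3 (chromosome 6, 137867188 to 137883312) encodes a ubiquitin-editing enzyme that shuts off the signal upstream of the IkB kinases. For TNFAIP3, normalized counts on day 6 were 2715, 2703 and 2621 without histidine, 3146, 3298 and 2919 at 12.5%, 2949 and 2876 at 25%, 2150, 2063 and 2375 at 50% and 2259, 2085 and 2056 at 100%. The day 9 libraries had 1695, 1812 and 1603 at 12.5%, 2228, 2218 and 2056 at 25%, 1175 and 1508 at 50% and 1344, 1250 and 1358 at 100%. On each day all libraries at 25% and below were above all libraries at 50% and 100%. TNFAIP3 rose with no histidine (log2 change 0.33, SE 0.09, adjusted p = 0.00477), at 12.5% on day 6 (log2 change 0.55, SE 0.09, adjusted p = 4.98e-05) and at 25% on day 6 (log2 change 0.45, SE 0.10, adjusted p = 0.00227). On day 9 it rose at 12.5% (log2 change 0.37, SE 0.09, adjusted p = 0.00301) and more at 25% (log2 change 0.72, SE 0.09, adjusted p = 2.56e-06), and 12.5% was below 25% (log2 change -0.35, adjusted p = 0.0146). It was the only member that passed between days at 100%, where it was lower on day 9 than on day 6 (log2 change -0.69, SE 0.09, adjusted p = 7.61e-05), where 1.1% of all genes rose and 1.07% fell. Without the keratin-high libraries, which leave 1 library at 100% on day 6, the changes of TNFAIP3 were -0.64 (adjusted p = 0.0725) between days and 0.38 (adjusted p = 0.0530) with no histidine.

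NFKB1 (chromosome 4, 102501329 to 102617302), which encodes a precursor that is processed into a subunit without a transactivation domain, was near its level in 100% medium at 25% and 50% and lower below that. For NFKB1, normalized counts on day 6 were 796, 789.8 and 775 without histidine, 764, 909 and 964 at 12.5%, 1454 and 1414 at 25%, 1463, 1314 and 1233 at 50% and 1527, 1478 and 1519 at 100%. On day 9 it had 908, 1090 and 896 at 12.5%, 1505, 1738 and 1699 at 25%, 1345 and 1844 at 50% and 1592, 1722 and 1740 at 100%. Every library at 12.5% or with no histidine was below every library at 25% or more. NFKB1 fell with no histidine (log2 change -0.94, SE 0.11, adjusted p = 3.80e-07), at 12.5% on day 6 (log2 change -0.78, SE 0.11, adjusted p = 1.11e-05) and at 12.5% on day 9 (log2 change -0.81, SE 0.11, adjusted p = 9.60e-06). At 25% the change was -0.07 (adjusted p = 0.781) on day 6 (95% interval -0.32 to 0.18) and -0.03 (adjusted p = 0.885) on day 9 (95% interval -0.26 to 0.19). At 50% on day 6 it was -0.18 (95% interval -0.40 to 0.05) and was not called. On day 6 every library at 25% and 50% was nevertheless below every library at 100%. Between the neighbouring levels, NFKB1 was lower at 12.5% than at 25%, with log2 changes of -0.71 on day 6 and -0.77 on day 9 (adjusted p = 0.000328 and 5.10e-05). No setting tried ended a call of NFKB1 against 100%. Its changes without the keratin-high libraries were -0.95 (adjusted p = 0.000764) with no histidine and -0.80 (adjusted p = 0.00517) at 12.5% on day 6.

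NFKB2 (chromosome 10, 102394110 to 102402529), whose product is both the noncanonical subunit and, unprocessed, an inhibitor that holds RELB, was lower at the same levels as NFKB1. For NFKB2, normalized counts on day 6 were 355, 369 and 325 without histidine, 294, 309 and 354 at 12.5%, 556 and 516 at 25%, 553, 469 and 509 at 50% and 504, 513 and 512 at 100%. Its day 9 values were 245, 316 and 258 at 12.5%, 539, 459 and 440.1 at 25%, 546 and 599 at 50% and 605, 429 and 516 at 100%. Every library at 12.5% or with no histidine was below every library at 25% or more. NFKB2 fell with no histidine (log2 change -0.55, SE 0.12, adjusted p = 0.00154), at 12.5% on day 6 (log2 change -0.68, SE 0.12, adjusted p = 0.000252) and at 12.5% on day 9 (log2 change -0.91, SE 0.12, adjusted p = 1.25e-05). At 25%, where RELB rose, the change of NFKB2 was 0.07 (adjusted p = 0.823) on day 6 (95% interval -0.22 to 0.36) and -0.10 (adjusted p = 0.668) on day 9 (95% interval -0.36 to 0.16). Against 25%, NFKB2 at 12.5% was lower on day 6 (log2 change -0.75, adjusted p = 0.000718) and on day 9 (log2 change -0.81, adjusted p = 0.000156). Both NFKB1 and NFKB2 are among the 1633 genes, 8.69% of those tested, that fell at 12.5% on both days. Without the keratin-high libraries the NFKB2 call between 12.5% and 25% on day 9 was lost (log2 change -0.76, adjusted p = 0.0652), and the fall with no histidine was -0.55 (adjusted p = 0.0563).

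**Figure D2:**
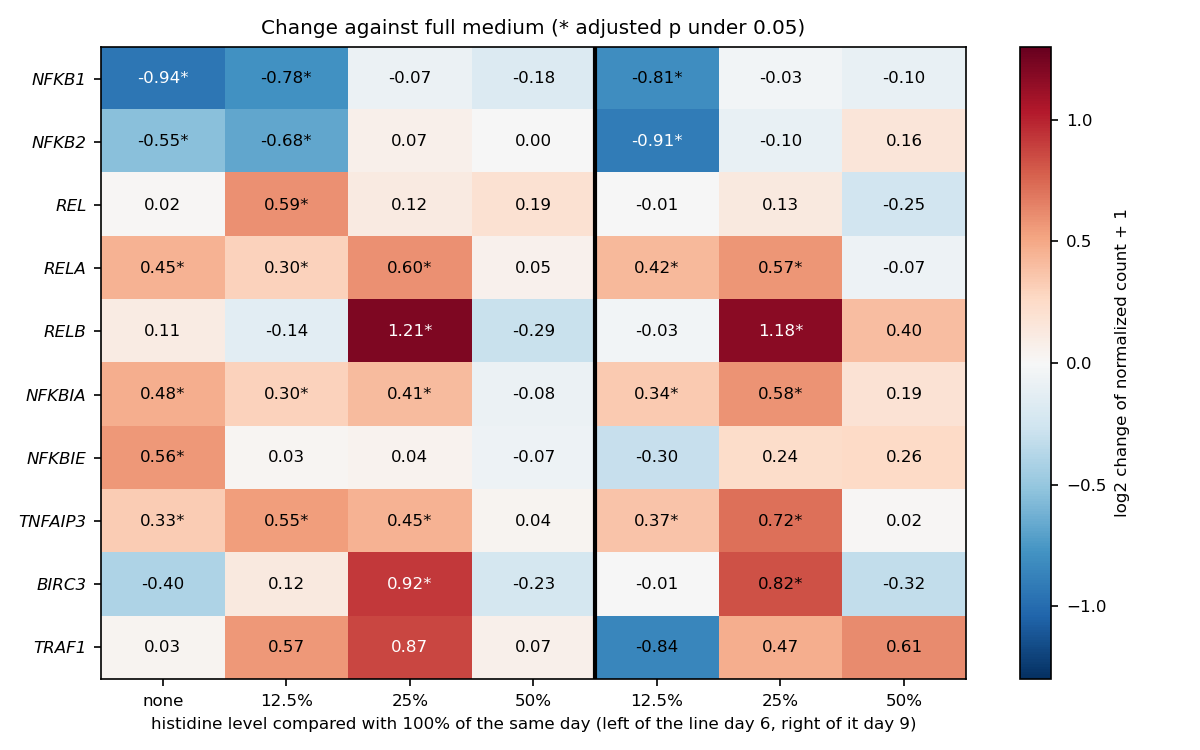
Log2 change of each gene (lines) against 100% histidine of the same day in each lower level (columns, low to high within a day), coloured by sign and size, with an asterisk where limma's adjusted p was under 0.05. RELB and BIRC3 are called only in the 25% columns among the comparisons with 100%, and NFKB1 and NFKB2 only in the columns of no histidine and 12.5%.

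REL (chromosome 2, 60881521 to 60931610), the subunit best known from activated lymphocytes, was called against 100% at 12.5% on day 6 and in no other comparison with 100%. For REL, normalized counts on day 6 were 530.2, 447 and 384 without histidine, 725, 675 and 617 at 12.5%, 563 and 413 at 25%, 617, 383 and 555 at 50% and 569, 329.9 and 467 at 100%. The day 9 libraries had 476, 565 and 534 at 12.5%, 496, 609 and 632 at 25%, 387 and 509 at 50% and 481, 515 and 592 at 100%. The 12.5% libraries of day 6 were the highest of that day's no-histidine, 12.5% and 100% libraries, with a replicate at 50% at the same height, and on day 9 all levels overlapped. REL rose at 12.5% on day 6 (log2 change 0.59, SE 0.19, adjusted p = 0.0207) and was lower with no histidine than at 12.5% (log2 change -0.58, SE 0.19, adjusted p = 0.0391), the only member called in that comparison, where 7% of all genes rose and 8.26% fell, and that call was lost in 7 of 19 alternatives. On day 9 the change at 12.5% was -0.01 (adjusted p = 0.983), and the difference between days in the effect of 12.5% was -0.60 (SE 0.26, unadjusted p = 0.0322, adjusted p = 0.446). The rise at 12.5% on day 6 was lost without the keratin-high libraries (log2 change 0.52, adjusted p = 0.115) and without replicate 2 at 100% or replicate 1 or 2 at 12.5%. The libraries at 12.5% on day 6 also had the lowest 5.8S rRNA, at 74.8 to 88.2 normalized counts against 153 to 1181 at 100%, and with 5.8S rRNA in the fit the change of REL was 0.79 (adjusted p = 0.0270).

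NFKBIE (chromosome 6, 44258166 to 44265788), which encodes a further IkB inhibitor, was called once. For NFKBIE, normalized counts on day 6 were 139.7, 139.9 and 177 without histidine, 103, 84.2 and 131 at 12.5%, 113 and 97.5 at 25%, 84.2, 131 and 83.9 at 50% and 114, 126 and 74.0 at 100%, and the no-histidine libraries were above those at 100%. On day 9 it had 124, 109 and 106 at 12.5%, 183, 147 and 164 at 25%, 182 and 152 at 50% and 149, 154 and 116 at 100%, with overlap between 100% and each lower level. NFKBIE rose with no histidine by 0.56 (SE 0.21, adjusted p = 0.0484). That call sat next to the threshold and was lost in 10 of 19 alternatives, among them without any of the no-histidine libraries. Without replicate 1, whose labels disagree on the day, the change was 0.62 (adjusted p = 0.0617), and with the keratin-high libraries left out it was 1.02 (adjusted p = 0.0127). The other 5 calls with no histidine held without replicate 1.

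TRAF1 (chromosome 9, 120902393 to 120929173), a signalling adaptor for TNF receptors and a strongly inducible target in activated lymphocytes, was barely present. Its normalized counts were between 1.19 and 16.3 in all 25 libraries, with a median of 8.32. The 95% interval of its change at 25% was -0.49 to 2.24 on day 6 and -0.75 to 1.69 on day 9. Changes of TRAF1 of the size seen for RELB were not detectable at this depth.

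Next to each other, the levels of histidine placed most of the change around 25%. Between 25% and 50%, 5 members rose and 0 fell on day 6, against 7.19% and 6.81% of all genes, and 5 rose and 0 fell on day 9, against 6.64% and 7.21%. These were RELA, RELB, NFKBIA, TNFAIP3 and BIRC3 on both days. Between 12.5% and 25%, 0 rose and 4 fell on day 6 (NFKB1, NFKB2, RELB and BIRC3), against 7.08% and 10.7% of all genes, and 0 rose and 5 fell on day 9 (the same and TNFAIP3), against 2.4% and 4.42%. Of the 5 B-lineage markers, 1 was higher at 25% than at 50% on each day (CD79A on day 6 and EBF1 on day 9), and 1 on day 6 (CD79A) and 3 on day 9 (CD79A, CD79B and EBF1) were lower at 12.5% than at 25%. The comparisons of neighbouring levels share the 25% libraries, so 1 library of that group touches both. On day 6, leaving out replicate 2 at 25% left 3 calls in place of 5 between 25% and 50%. Leaving out replicate 3 at 25% left 3 in place of 5 between 25% and 100%. RELB kept its call in each of those fits. Shares of all genes called are not given here for fits with libraries left out. The day 6 call of BIRC3 between 12.5% and 25% was lost with 5.8S rRNA in the fit and without replicate 2 at 12.5% or replicate 3 at 25%. The day 9 call of TNFAIP3 was lost without replicate 3 at 12.5% or replicate 1 or 2 at 25%, with 5.8S rRNA in the fit and under either other scaling. Without the keratin-high libraries 3 of the 5 calls were left between 25% and 50% on each day (BIRC3 and TNFAIP3 were lost on day 6, RELB and NFKBIA on day 9) and 2 of the 5 between 12.5% and 25% on day 9 (NFKB2, BIRC3 and TNFAIP3 were lost). The difference between days in the effect of histidine passed for no member at 12.5% or 25%, where limma called 0.0638% and 0.00532% of all genes and 1 member each had an unadjusted p under 0.05 (REL at 12.5% and TNFAIP3 at 25%).

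**Figure D3:**
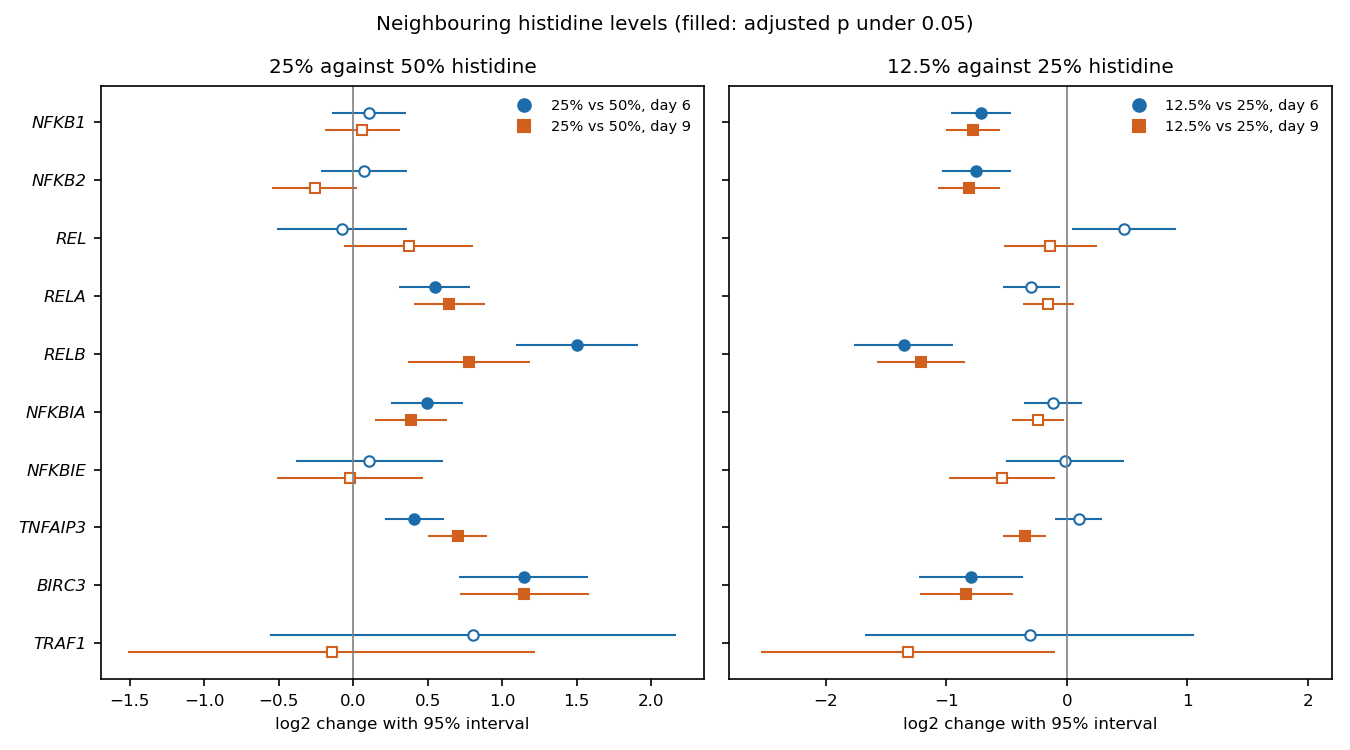
Log2 change (horizontal axis) of each gene (vertical axis) between neighbouring histidine levels, 25% against 50% on the left and 12.5% against 25% on the right, for day 6 (circles) and day 9 (squares), with 95% intervals and filled symbols where limma's adjusted p was under 0.05. RELB and BIRC3 lie to the right of 0 on the left and to the left of 0 on the right on both days.

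The order of group means differed between members. RELB and BIRC3 were highest at 25% on both days, with the highest group mean 2.83 and 2.47 times the lowest on day 6 and 2.32 and 2.22 times on day 9. RELA was highest at 25% on both days as well, with ratios of 1.51 and 1.57, but its neighbours at 12.5% did not differ from it beyond the test. TNFAIP3 was highest at 12.5% on day 6 and at 25% on day 9. NFKB1 was highest at 100% on both days and lowest with no histidine on day 6 (a ratio of 1.92), though no histidine and 12.5% did not pass between each other (log2 change -0.15, adjusted p = 0.387). Over the 25 libraries, which share the same scaling, the log2 values of RELA correlated with those of NFKBIA at a Pearson r of 0.876, NFKB1 with NFKB2 at 0.819 and RELB with BIRC3 at 0.668. NFKB1 and TNFAIP3 had the most negative r, at -0.49.

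Outside the 10, the genes whose log2 values over the 25 libraries were most like those of RELB were BTG2 (r = 0.857), TMEM198 (0.835) and SIDT2 (0.829). For BIRC3 they were BCL6 (r = 0.824), OSBPL3 (0.821) and TTC39C (0.814). For NFKB1 the closest gene was CXXC5 (r = 0.955), for NFKB2 GLIS2 (0.945), for RELA ADRM1 (0.957), for NFKBIA PIAS4 (0.913) and for TNFAIP3 ARRDC4 (0.917). TRAF1 had no gene above 0.601. These r values are descriptions over libraries that share groups and scaling.

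Among the receptors and ligands that feed the pathway, more genes passed at the lowest histidine levels than at 25%, as over all genes tested. Of the 23 listed 15 were tested, and 6 rose and 3 fell with no histidine, 6 rose and 3 fell at 12.5% on day 6, and 3 rose and 1 fell at 25% on day 6. On day 9, 6 rose and 1 fell at 12.5%, and 2 rose and 2 fell at 25%. In all, 60% of those tested passed with no histidine, 60% at 12.5% and 26.7% at 25% on day 6, and 46.7% at 12.5% and 26.7% at 25% on day 9, where 29.8%, 27%, 13.7%, 20.8% and 18.2% of all genes tested passed. Their median log2 change was 0.35 with no histidine, 0.13 at 12.5% and 0.09 at 25% on day 6. Over all genes it was 0.03, 0.04 and 0.001. On day 9 the list's median was 0.39 at 12.5% and 0.15 at 25%, against 0.03 and 0.003 over all genes. LTB, the lymphotoxin subunit that signals through the receptor of the noncanonical arm, had 8771 ± 1520 normalized counts with no histidine, 6043 ± 554 at 12.5%, 4944 ± 169 at 25% (n = 2) and 3391 ± 284 at 100% on day 6 (mean ± SD, n = 3 elsewhere). LTB rose with no histidine (log2 change 1.36, adjusted p = 5.62e-08), at 12.5% on day 6 (log2 change 0.83, adjusted p = 9.14e-05), at 25% on day 6 (log2 change 0.55, adjusted p = 0.0187) and at 12.5% on day 9 (log2 change 0.46, adjusted p = 0.0191). At 25% on day 9 its change was 0.37 (adjusted p = 0.0676). RELB passed at 25% on both days and in none of the other 3. The LTB call at 25% on day 6 was lost without the keratin-high libraries, without either library at 25% or without replicate 2 or 3 at 100%. The one at 12.5% on day 9 was lost with 5.8S rRNA in the fit or without replicate 1 at 12.5% or replicate 1 or 2 at 100%. The receptor gene LTBR was at 0 in every library of 6 groups and had at most 7.91 normalized counts in the others. TNF, the cytokine that drives the canonical arm, had 658 ± 9.44 normalized counts with no histidine, 636 ± 56.6 at 12.5%, 256 ± 24.4 at 25% (n = 2) and 349.6 ± 50.7 at 100% on day 6. TNF rose with no histidine (log2 change 0.92, adjusted p = 7.44e-05), at 12.5% on day 6 (log2 change 0.87, adjusted p = 0.000231) and at 12.5% on day 9 (log2 change 1.20, adjusted p = 7.92e-06). At 25% the changes of TNF were -0.44 (adjusted p = 0.104) on day 6 and -0.03 (adjusted p = 0.947) on day 9. CD28, a costimulatory receptor of T cells, rose at 12.5% (log2 change 1.05, adjusted p = 0.000433 on day 6 and 1.39, adjusted p = 2.61e-05 on day 9) and at 25% (log2 change 1.23, adjusted p = 0.000574 and 1.10, adjusted p = 0.000353). With no histidine CD28 was not called against 100%. With 5.8S rRNA in the fit the day 6 call of CD28 at 12.5% was lost. TNFRSF13C, the receptor for the survival factor BAFF in B cells, fell with no histidine to 90.4 ± 3.90 normalized counts, against 371 ± 80.5 at 100% (log2 change -2.00, adjusted p = 5.43e-08). It also fell at 12.5% (log2 change -0.57, adjusted p = 0.0394 on day 6 and -0.70, adjusted p = 0.0160 on day 9) and at 25% on day 9 (log2 change -0.68, adjusted p = 0.0217), calls lost in 9, 2 and 5 of 19 alternatives. TNFRSF1B, another receptor gene of the list, fell further with no histidine (log2 change -3.70, adjusted p = 0.000291). It averaged 17.8 normalized counts there and 117 at 100%, and the call was lost without the keratin-high libraries.

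Among the 25 signal carriers, all tested, 2 rose and 3 fell with no histidine, 2 rose and 8 fell at 12.5% on day 6, and 1 rose and 4 fell at 25% on day 6. On day 9, 0 rose and 4 fell at 12.5%, and 2 rose and 2 fell at 25%. These were 20%, 40%, 20%, 16% and 16% of the list in that order of comparisons, against 29.8%, 27%, 13.7%, 20.8% and 18.2% of all genes tested. RBCK1, a subunit of the complex that attaches linear ubiquitin, fell in all 5 of these comparisons. It had 2974 ± 344 normalized counts with no histidine, 2366 ± 93.4 at 12.5%, 2868 ± 131 at 25% (n = 2) and 4701 ± 233 at 100% on day 6. Its log2 changes were -0.67 (adjusted p = 3.67e-05) with no histidine, -0.99 (adjusted p = 4.72e-07) at 12.5% on day 6, -0.71 (adjusted p = 0.000242) at 25% on day 6, -0.32 (adjusted p = 0.0385) at 12.5% on day 9 and -0.64 (adjusted p = 0.000138) at 25% on day 9. The day 9 call at 12.5% was lost in 9 of 19 alternatives, among them upper-quartile rescaling and the fit without the keratin-high libraries. No library at 12.5% or 100% on day 9 is keratin-high, so that fit changed only the shared spread, the filter and the adjustment. MAP3K14, the kinase of the noncanonical arm, rose with no histidine (log2 change 0.54, adjusted p = 0.00741), a call lost without the keratin-high libraries or replicate 1 at 100%. At 25%, where RELB rose, the changes of MAP3K14 were 0.11 (adjusted p = 0.762) on day 6 and -0.07 (adjusted p = 0.826) on day 9. Whether LTB or MAP3K14 has a part in the change of RELB was not tested. TRAF5, an adaptor for TNF receptors, fell with no histidine (log2 change -1.20, adjusted p = 0.000186) and at 12.5% on day 9 (log2 change -0.87, adjusted p = 0.00642). It also fell at 12.5% (log2 change -0.62, adjusted p = 0.0414) and 25% (log2 change -0.78, adjusted p = 0.0371) on day 6, calls lost in 10 of 19 and 9 of 18 alternatives.

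Of 15 other brakes and IkB-type proteins 14 were tested, and 3 rose and 3 fell with no histidine, 2 rose and 1 fell at 12.5% on day 6, and 5 rose and 2 fell at 25% on day 6. On day 9, 1 rose and 1 fell at 12.5%, and 4 rose and 2 fell at 25%. In the same order these were 42.9%, 21.4%, 50%, 14.3% and 42.9% of those tested, against 29.8%, 27%, 13.7%, 20.8% and 18.2% of all genes tested. PDLIM2, a nuclear ubiquitin ligase that ends RELA activity, rose with no histidine (log2 change 0.93, adjusted p = 2.78e-07), at 12.5% on day 6 (log2 change 0.39, adjusted p = 0.00655), at 25% on day 6 (log2 change 0.41, adjusted p = 0.0184), at 12.5% on day 9 (log2 change 0.53, adjusted p = 0.000669) and at 25% on day 9 (log2 change 0.56, adjusted p = 0.000459). Its day 6 calls were lost with 5.8S rRNA in the fit at 12.5%, and at 25% without the keratin-high libraries, replicate 3 at 25% or replicate 3 at 100%. TAX1BP1, an adaptor that works with the TNFAIP3 product, fell with no histidine (log2 change -0.38, adjusted p = 0.000382), at 12.5% on day 6 (log2 change -0.32, adjusted p = 0.00295), at 12.5% on day 9 (log2 change -0.43, adjusted p = 0.000216) and at 25% on day 9 (log2 change -0.32, adjusted p = 0.00412). Its calls on day 6 and at 25% on day 9 were lost without the keratin-high libraries. CYLD, a deubiquitinating enzyme, and NFKBIB, another IkB inhibitor, were chosen after their values were seen because they rose at 25% on both days and passed as risers at neither lower level. CYLD rose at 25% by 0.35 on day 6 and 0.34 on day 9 (adjusted p = 0.0218 and 0.00937). The day 6 call was lost with the keratin covariate or without either library at 25% or replicate 3 at 100%, and the day 9 call without replicate 2 at 25%. NFKBIB rose by 0.49 and 0.45 (adjusted p = 0.0354 and 0.0235), and fell with no histidine (log2 change -0.41, adjusted p = 0.0265). All 3 calls were lost without the keratin-high libraries and with the keratin covariate. Its rises were lost in 9 of 18 alternatives on day 6 and 6 of 19 on day 9, and its fall in 5 of 19, among them without replicate 1 of the no-histidine libraries, whose labels disagree on the day.

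Other textbook targets of NF-kB moved in both directions. Of 33 listed 19 were in the table and 17 were tested, and 4 rose and 5 fell with no histidine, 4 rose and 5 fell at 12.5% on day 6, and 0 rose and 4 fell at 25% on day 6. On day 9, 3 rose and 3 fell at 12.5%, and 2 rose and 2 fell at 25%. In that order 52.9%, 52.9%, 23.5%, 35.3% and 23.5% of those tested passed, against 29.8%, 27%, 13.7%, 20.8% and 18.2% of all genes tested. IER3, an early response gene that is also induced by stress, had 1111 ± 121 normalized counts with no histidine, 567 ± 52.0 at 12.5%, 208 ± 22.4 at 25% (n = 2) and 203 ± 24.8 at 100% on day 6. IER3 rose with no histidine (log2 change 2.45, adjusted p = 2.09e-09), at 12.5% on day 6 (log2 change 1.48, adjusted p = 1.04e-05) and at 12.5% on day 9 (log2 change 1.70, adjusted p = 2.20e-06). Its change at 25% on day 6 was 0.04 (adjusted p = 0.941). At 25% on day 9 IER3 rose (log2 change 0.65, adjusted p = 0.0262), a call lost in 7 of 19 alternatives, among them the fit without the keratin-high libraries. PLAU, which encodes urokinase, and CD69, an early activation marker of lymphocytes, rose in the same 3 comparisons at no histidine and 12.5%, with PLAU up by 1.18, 1.58 and 1.92 (adjusted p = 0.00761, 0.000837 and 0.000159). PLAU fell at 25% on day 6 (log2 change -1.21, adjusted p = 0.0278), a call lost in 6 of 18 alternatives. CD69 rose by 0.48, 0.48 and 0.46 (adjusted p = 0.0175, 0.0210 and 0.0313) and also at 25% on day 9 (log2 change 0.68, adjusted p = 0.00247). All 4 calls of CD69 were lost without the keratin-high libraries. None of those libraries is at 12.5% or 100% on day 9. For the call at 12.5% on day 9, that fit therefore changed only the shared spread, the filter and the adjustment. STAT5A, a transcription factor of cytokine signalling, fell with no histidine to 85.1 ± 16.9 normalized counts, against 219 ± 19.5 at 100% (log2 change -1.37, adjusted p = 1.06e-06). It also fell at 12.5% (log2 change -0.70, adjusted p = 0.00323 on day 6 and -1.14, adjusted p = 3.48e-05 on day 9) and at 25% on both days (log2 change -0.65, adjusted p = 0.0227 on day 6 and -1.12, adjusted p = 4.43e-05 on day 9). Both day 6 calls of STAT5A at 12.5% and 25% were lost without the keratin-high libraries. CD83, an activation marker, fell with no histidine (log2 change -1.07, adjusted p = 1.17e-06) and at 12.5% on both days (log2 change -0.46, adjusted p = 0.0124 and -0.54, adjusted p = 0.00449), and the day 6 call at 12.5% was lost with 5.8S rRNA in the fit. At 50% limma called 0 genes of the 4 lists on either day, where 0 genes on day 6 and 1 gene each of the receptors, the brakes and the targets on day 9 had an unadjusted p under 0.05.

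**Figure D4:**
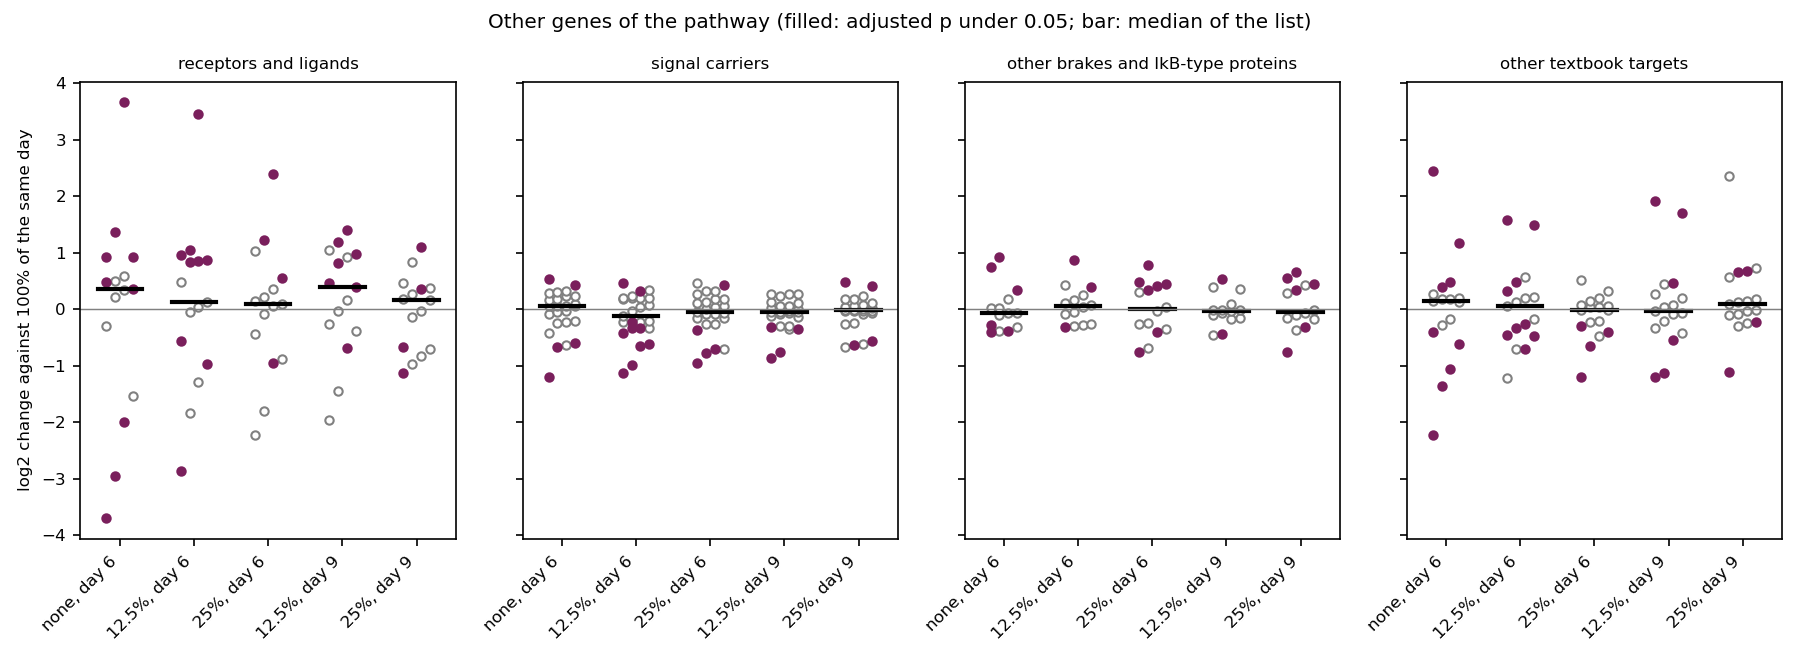
Log2 change against 100% histidine of the same day (vertical axis) of each tested gene (points) of the 4 lists of other pathway genes (panels), by level and day (horizontal axis), with filled points where limma's adjusted p was under 0.05 and a bar at the median of the list. Among these columns (no histidine, 12.5% and 25%), called genes lie on both sides of 0 in every one of each list except the signal carriers at 12.5% on day 9 and the targets at 25% on day 6, where they lie below 0. IER3 with no histidine, at 2.45, is the highest called point of the targets.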

How the data were processed

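The RNA libraries, strand-specific per the labels' protocols, came from DND-41 cells at 5 histidine levels. Values in the deposited table are a signal labelled as normalized counts, which by that name would be read counts per gene divided by size factors. Per the submitters' processing notes, the tools were FastQC 0.11.9, kallisto 0.50.1 and DESeq2 1.44.0 and the build GRCh38. Annotation release and strand handling of the quantification: not given in the sources used here. Reads of overlapping antisense genes may therefore not be told apart. Scaling between libraries hides any change in RNA content per cell. A search for whole reads failed, since by library 37.8% to 76.2% of values under 20 came within 0.05 of a multiple of the best step. Whether the values are read counts divided by 1 size factor per library was therefore not established. The depth is known as the total of normalized counts alone.

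The filter asked for at least 10 normalized counts in at least 2 libraries and kept 18799 of 31919 genes. On log2(normalized count + 1), limma 3.58.1 (R 4.3.3) was run with a mean-variance trend on 9 group means, with 16 residual degrees of freedom and 15 contrasts, each adjusted by Benjamini-Hochberg over every gene tested. Groups and days follow the titles. Alternatives changed the pseudocount, the filter, the scaling or the trend, added a replicate block, library weights, a keratin or a 5.8S rRNA covariate, fitted the compared groups alone, or left out the keratin-high libraries or each library in turn. The code was tested on simulated data. The 10 members and the lists were chosen with earlier results of these data known. Genes of a list were named if among its 3 largest called rises or falls with no histidine, at 12.5% on day 6 or at 12.5% on day 9, and the higher group averaged at least 50. Not every gene so named is described, and further ones are marked as chosen after their values were seen. Likeness took the 3 genes of highest Pearson r over 25 libraries among those averaging at least 50. Promoters are from RefSeq (GRCh38.p14, 8 of 10 members matched by symbol), and gene coordinates, by symbol, from GENCODE 29 on GRCh38. Plots were made in matplotlib 3.10.9 (Python 3.11.15). One marker gene is not reported here.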

Additional observations from a re-analysis of the deposited data

How the results depend on the processing

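No change of a called gene turned its direction under any alternative run. Of the changes of single members under alternatives, 2664 kept direction and side of the threshold, 77 lost a call, 10 gained one, and 141 changed sign where no call was made. Counts of members called that moved by more than 1.5 times are these. For none against 12.5% on day 6, where 1 was called, 0 were called without the filter, without the mean trend or with the replicate block, 2 with the stricter filter of 50, quantile normalization, the keratin covariate or the 5.8S rRNA covariate, and 3 with library weights. Without the keratin-high libraries, 3 in place of 6 were called at 12.5% against 100% on day 6, 3 in place of 5 at 25% against 100% on day 6 and on day 9, 3 in place of 5 at 25% against 50% on day 6 and on day 9, 2 in place of 5 at 12.5% against 25% on day 9, and 0 in place of 1 between days at 100%. That fit leaves 1 library at 100% on day 6, 1 at 50% on day 6 and 1 at 25% on day 9, each assumed to vary like the other groups. The share of all genes called is not given here for that fit or for fits without a single library. A loss of calls among the members can therefore not be told apart from a general loss of calls.

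Leaving out 1 library at a time gave 0 to 2 calls for none against 12.5% on day 6, 3 to 5 for 12.5% against 100% on day 6, 3 to 5 for 25% against 100% on day 6 and 3 to 5 for 25% against 50% on day 6. For 12.5% against 100% on day 6 the count was 3 without replicate 2 at 12.5%. For none against 12.5% it was 0 without replicate 3 of the no-histidine libraries or replicate 1 at 12.5%, and 2 without replicate 3 at 12.5%.

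Same-numbered libraries deviated from their group means with a median correlation of 0.004 (-0.13 to 0.08, 92 pairs), against -0.001 for different numbers, so the numbers were not taken to pair the libraries. With the replicate block the count for none against 12.5% was 0, and no other count of members moved by over 1.5 times. Upper-quartile rescaling moved the median of all genes to 0.121, against 0.04 as reported, at 12.5% on day 6, and to 0.102, against 0.026, at 12.5% against 25% on day 6. It put rises at 54.5% of calls at 12.5% on day 6, against 43.3% as reported, at 51.8% against 39.8% between 12.5% and 25% on day 6, at 46.4% against 35.3% between them on day 9, and at 31.8% against 50.5% between days. TRAF1 lay too low for changes of the size reported for the other members to be seen.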
